A study of Homo sapiens with 6 samples.

Results

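The 9 genes CLK1, CLK2, CLK3, CLK4, SRPK1, SRPK2, DYRK1A, CCNL1 and CCNL2 were taken by name from 1 exon annotation that listed 13721 gene names. They encode kinases and cyclins that act on SR proteins, and 12462 of the listed names had at least 1 intron. The annotation describes U-87 MG, a human glioma cell line in long use, and was made from poly(A)-selected RNA of 2 groups of 3 libraries. In one group the cells received EPZ015666 at 10 uM for 72 h, which inhibits PRMT5, an enzyme that methylates arginines on splicing proteins. The other group received DMSO, the vehicle, at 10 ul in 10 ml of medium for the same 72 h. Only this 1 line was used. The file gives exon positions for both groups together and 0 columns of values per library. No level, depth, replicate error or difference between EPZ015666 and DMSO can be given from it, and marker levels could not be checked. All results are descriptions of the listed gene structures, in hg19 coordinates.

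CLK kinases (CDC2-like kinases) phosphorylate SR proteins in the nucleus, which changes where these splicing factors sit and what they bind. SRPK kinases phosphorylate the same proteins mainly in the cytoplasm and so promote their import into the nucleus. DYRK1A, a dual-specificity kinase, also phosphorylates splicing factors and binds cyclin L2. Cyclins L1 and L2, from CCNL1 and CCNL2, are partners of CDK11 and take part in splicing. CLK genes are known for a regulated exon that can be skipped, and for introns beside it that can stay in nuclear polyadenylated RNA until a signal or a loss of kinase activity triggers their removal.

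That regulated exon and the exon after it are shown because the forms described for the CLK genes turn on them. The sequences are those of the GENCODE v29 reference transcripts (GRCh38), 5′ to 3′ on the strand of the gene. In the regulated exon, capitals mark a base shared by all 4 genes in an alignment of 97 columns, which held for 40 columns. Its positions are chr2:200860125-200860215 (minus strand) for CLK1, chr1:155268708-155268795 (minus) for CLK2, chr15:74622120-74622216 (plus) for CLK3 and chr5:178617344-178617434 (minus) for CLK4.
CLK1 regulated exon: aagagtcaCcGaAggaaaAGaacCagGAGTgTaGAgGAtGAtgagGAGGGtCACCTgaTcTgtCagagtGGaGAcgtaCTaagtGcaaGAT
CLK2 regulated exon: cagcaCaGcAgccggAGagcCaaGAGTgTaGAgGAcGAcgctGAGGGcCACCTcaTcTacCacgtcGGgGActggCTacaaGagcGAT
CLK3 regulated exon: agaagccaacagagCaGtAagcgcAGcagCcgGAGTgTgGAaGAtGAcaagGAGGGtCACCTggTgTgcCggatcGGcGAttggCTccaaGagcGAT
CLK4 regulated exon: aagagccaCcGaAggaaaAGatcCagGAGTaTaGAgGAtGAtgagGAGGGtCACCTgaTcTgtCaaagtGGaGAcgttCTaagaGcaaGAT
CLK1 and CLK4 had equal bases at 85 of 91 positions with no gap, and CLK2 and CLK3 differed from them in length as well.

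In the next exon, of 67 bases in each gene, capitals mark the stop codon that is met when the regulated exon is left out. It lies at chr2:200859680-200859746 (minus strand) in CLK1, chr1:155268293-155268359 (minus) in CLK2, chr15:74622494-74622560 (plus) in CLK3 and chr5:178616882-178616948 (minus) in CLK4.
CLK1 next exon: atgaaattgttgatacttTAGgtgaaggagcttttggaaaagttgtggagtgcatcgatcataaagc
CLK2 next exon: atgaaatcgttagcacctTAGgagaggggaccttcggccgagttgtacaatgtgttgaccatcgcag
CLK3 next exon: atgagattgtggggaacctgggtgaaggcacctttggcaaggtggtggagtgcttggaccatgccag
CLK4 next exon: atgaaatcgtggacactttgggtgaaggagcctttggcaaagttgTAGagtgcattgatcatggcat
The CLK3 exon has no capitals because its stop lies further on.

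Every listed CLK isoform that reached past the regulated exon contained it. It was exon 4 of CLK1 (chromosome 2, 201724848 to 201724938, 91 bases), of CLK2 (chromosome 1, 155238499 to 155238586, 88 bases) and of CLK3 (chromosome 15, 74914461 to 74914557, 97 bases). It was exon 6 of CLK4 (chromosome 5, 178044345 to 178044435, 91 bases), where 2 more exons were listed before it. The exon was present in 4 of 4 such isoforms of CLK1, in 1 of 1 of CLK2, in 4 of 4 of CLK3 and in 3 of 3 of CLK4. In CLK1, CLK3 and CLK4, 1 of these forms was listed 2 times and counted 2 times. The 2 other isoforms of CLK4 ended before it. None of the 4 genes was listed with the exon skipped, and across the 9 genes 0 had any skipped internal exon, against 0% of all genes with introns. The count of 0 holds for the whole file. In 12462 of 12462 genes, all isoforms shared 1 exon chain up to the last exon, so isoforms of a gene differed only in where they ended. For the same reason 0 of 9 genes had 2 or more first exons, against 0% of all genes.

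The introns beside the regulated exon were listed as gaps between consecutive exon rows. The name of the annotation refers to DI, read here as detained introns that stay in the RNA, and to consensus coding isoforms. Which rows, if any, stand for detained introns is not given, so a gap does not show that the intron was removed. The intron before it measured 1022 bases in CLK1, 692 in CLK2, 1894 in CLK3 and 1121 in CLK4. The intron after it was shorter in each gene, at 378 bases in CLK1, 348 in CLK2, 277 in CLK3 and 395 in CLK4. No exon in the file, under any gene name, covered either intron in any of the 4 genes (0 exons). The listed forms therefore hold no row in which the exon and its introns are joined. Whether the cells held such RNA was not tested.

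The reference lists both kinds of form that the deposited rows lacked. A transcript without the exon is given for CLK1 (CLK1-204, annotated for nonsense-mediated decay), for CLK2 (CLK2-205) and for CLK4 (CLK4-210, annotated for decay, and CLK4-212). These join the 2 neighbouring exons at their listed edges. CLK1-215, annotated as protein-coding with 454 codons, matched neither the regulated exon of CLK1 nor exon 5. Its structure there was not examined. For CLK3 there are 4, of which CLK3-204 and CLK3-225 are annotated for decay and CLK3-209 and CLK3-211 as protein-coding. The last 2 are short, with 3 exons and 544 bases in CLK3-209 and 5 exons and 526 bases in CLK3-211. CLK3-202 has 13 exons and 2621 bases. One exon of 1787 bases in CLK1-210 and one of 1897 bases in CLK4-203 run through both introns. CLK3-203 and CLK4-206 keep the intron before the exon, CLK3-224 keeps the one after it, and 0 transcripts of CLK2 keep either.

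The exon's length left a remainder of 1 on division by 3 in all 4 genes, so leaving it out shifts the reading frame. Read without the exon, the CLK1 reference had 136 codons before a stop, against 484 codons with it. CLK2 had 139 codons, against 499 with the exon, and CLK4 had 143, against 481. CLK3 had 300 codons, against 638 with the exon. The stop fell in bases 19 to 21 of the next exon in CLK1 and CLK2, in bases 46 to 48 in CLK4, and in CLK3 in bases 88 to 90 counted from the start of that exon, which is beyond its end. From each stop to the last exon junction there were 809 bases in CLK1 and CLK2, 740 in CLK3 and 782 in CLK4. Nonsense-mediated decay usually acts on stops more than 50 bases before the last junction. In the intron-keeping transcripts a stop came in bases 4 to 6 of the intron for CLK1-210, CLK4-203 and CLK4-206, after 131, 129 and 129 codons. In CLK3-203 it came in bases 34 to 36, after 282 codons. These readings describe the reference transcripts and not a measured protein.

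**Figure D1:**
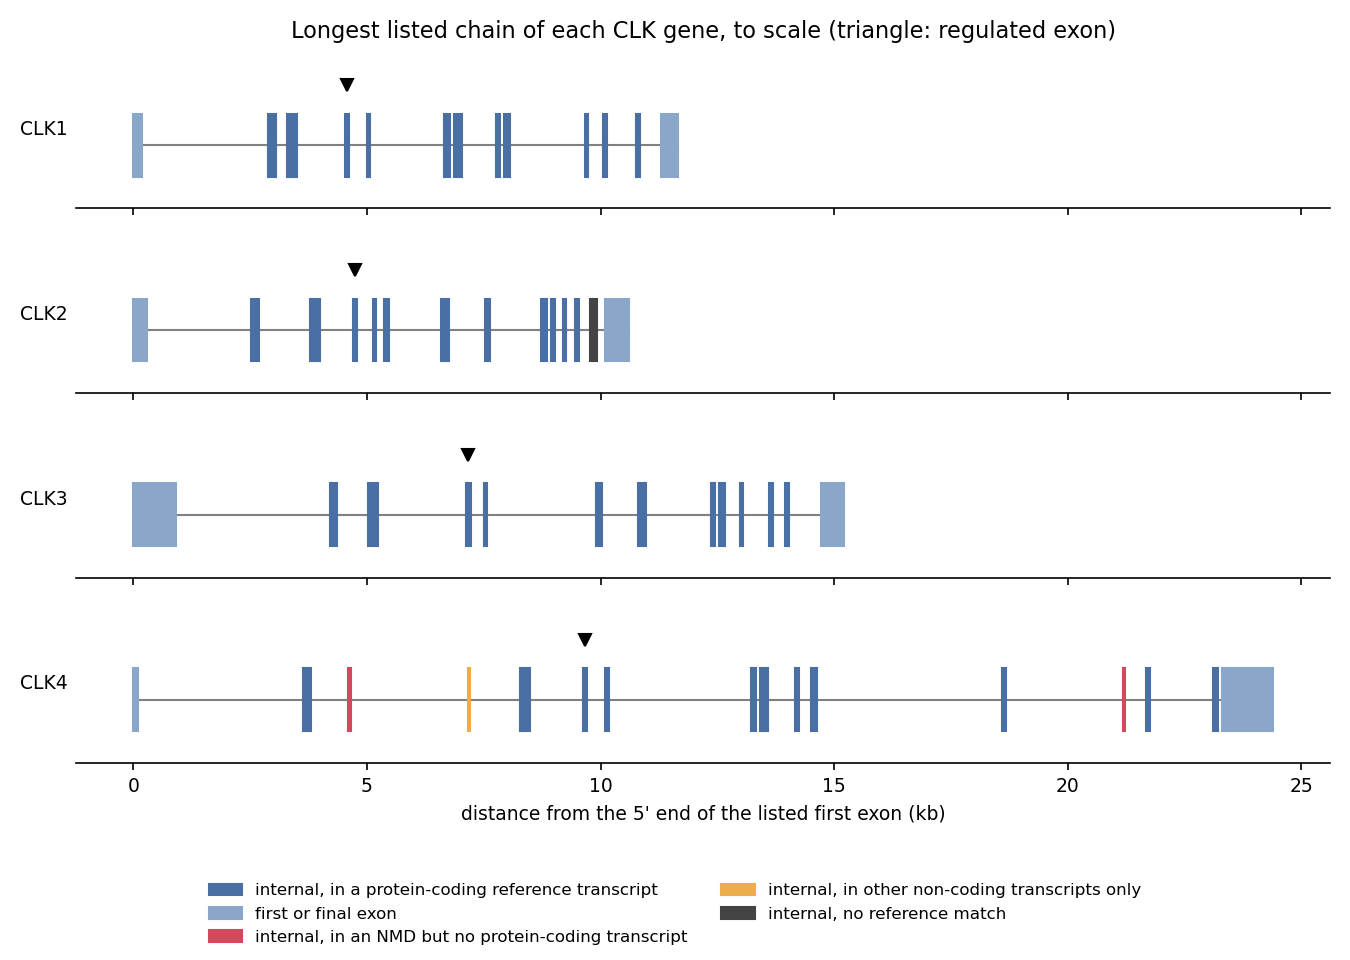
Longest listed exon chain of CLK1, CLK2, CLK3 and CLK4, drawn to scale in kb from the 5′ end of the first exon. Boxes are exons coloured by the reference transcripts that hold them, grey lines are introns and the triangle marks the regulated exon, which is exon 4 in CLK1, CLK2 and CLK3 and exon 6 in CLK4.

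CLK1, CLK2 and CLK3 shared one succession of exon lengths from the exon after the regulated one onward, and CLK4 shared it with 1 more exon inserted. CLK1 (chromosome 2, 201717800 to 201729467, minus strand) had 13 exons and 12 introns, and CLK2 (chromosome 1, 155232671 to 155243281, minus) had 14 exons and 13 introns. CLK3 (chromosome 15, 74907336 to 74922542, plus) had 13 exons and 12 introns, and CLK4 (chromosome 5, 178029666 to 178054054, minus) had 16 exons and 15 introns. Exons of 67, 117, 167, 95, 130, 83, 80 and 91 bases followed each other in CLK1, CLK2 and CLK3, a run of 8 exons and 830 bases. CLK4 had the same lengths with a 41-base exon between the 83-base and 80-base ones, so its run with CLK2 and with CLK3 stopped at 6 exons. Its run with CLK1 was 7 exons, because both regulated exons had 91 bases. Among the other 12461 genes, 3 shared a run of 3 or more exon lengths with CLK1, and these were CLK2, CLK3 and CLK4.

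SRPK1 (chromosome 6, 35800744 to 35888842, minus strand) had 16 exons, and SRPK2 (chromosome 7, 104758155 to 105029377, minus) had 19. They shared a run of 6 exons of 109, 88, 88, 107, 166 and 26 bases, and RBPJ and AAK1 came next in likeness to SRPK1 with runs of 2 exons each. The last exon of that run is shown to compare the pair base by base, with capitals at the 20 of 26 bases that both genes have, from GENCODE v29 (GRCh38) at chr6:35870934-35870959 and chr7:105145283-105145308, both on the minus strand.
SRPK1 exon of 26 bases: TcAGTACtGCTCCcCAGCctAAACCa
SRPK2 exon of 26 bases: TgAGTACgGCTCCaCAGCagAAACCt
SRPK2 was the 1 gene of 12461 with a run of 3 or more exons in common with SRPK1. A further run of 101, 108, 70 and 93 bases was shared by exons 12 to 15 of SRPK1 and exons 14 to 17 of SRPK2. Introns differed more than exons: the median intron was 1603 bases in SRPK1 and 3840 in SRPK2, and the longest were 29454 and 82076 bases.

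DYRK1A (chromosome 21, 38739860 to 38878526, plus strand) had 13 exons and 12 introns, with a longest intron of 52670 bases and a median of 4443.5. Its paralog DYRK1B, another dual-specificity kinase, shared a run of 5 exons of 189, 148, 287, 147 and 141 bases, while ABCA5 and CAPN10 shared 2 each. CCNL1 (chromosome 3, 156865343 to 156878482, minus strand) had 13 exons, and CCNL2 (chromosome 1, 1321092 to 1334718, minus) had 15. They shared 2 runs of 3 exons, one of 121, 65 and 14 bases (exons 5 to 7 of CCNL1 and 4 to 6 of CCNL2) and, right after the 14-base exon in CCNL1, one of 100, 105 and 142 bases. GLDC and HBP1 shared 2 each with CCNL1. Only 1 of 12461 genes reached a run of 3 with DYRK1A, and only 1 with CCNL1. A run of 2 or more, these paralogs included, was found in 32 genes for CLK1, 44 for SRPK1, 23 for DYRK1A and 37 for CCNL1.

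**Figure D2:**
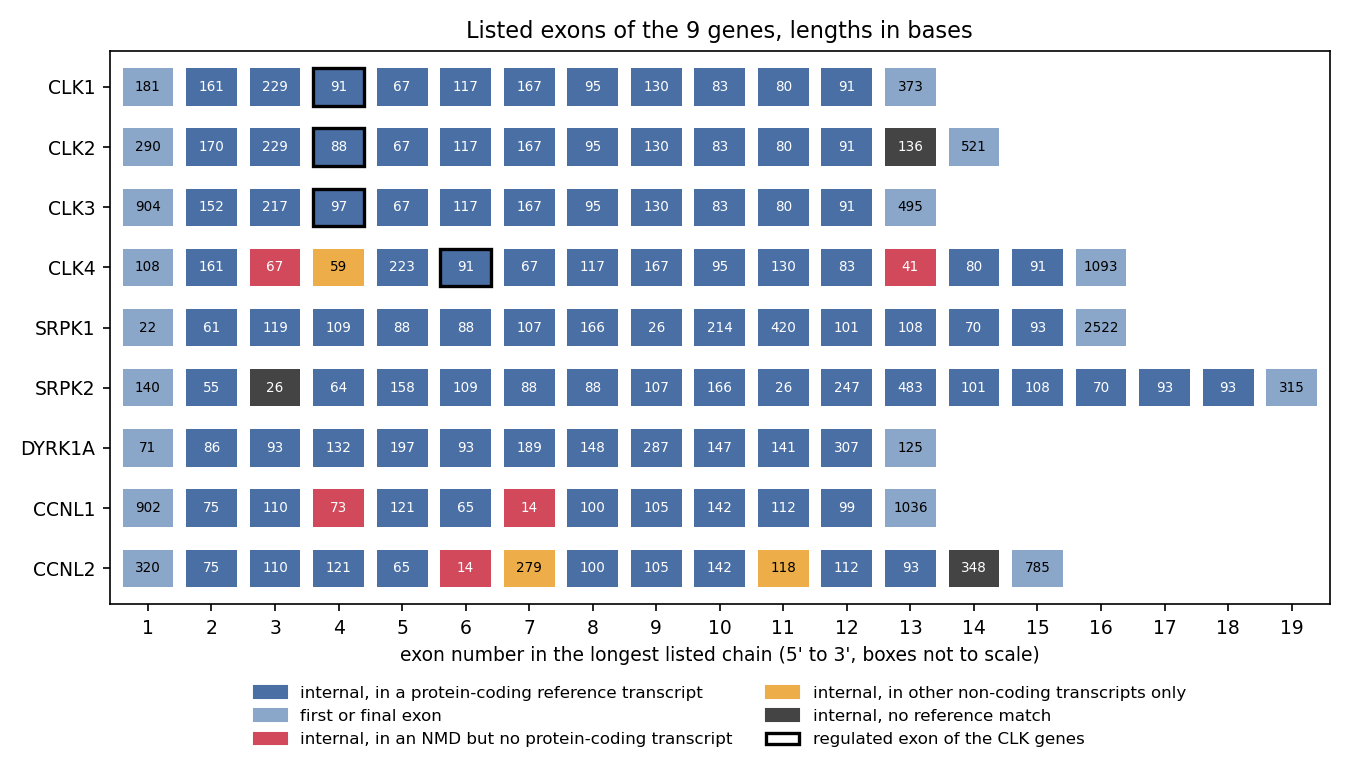
Exons of the longest listed chain of each of the 9 genes in order from 5′ to 3′, with the length of each in bases; boxes are not to scale. Colours give the reference transcripts that hold an internal exon, and black outlines mark the regulated exon of the CLK genes, followed in each gene by exons of 67, 117 and 167 bases.

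Of the 123 introns of the 9 genes, 116 (94.3%) had a length found in the reference gene, against 91.5% of the introns of all matched genes. All introns matched in CLK1, CLK3, SRPK1 and CCNL1. The whole intron chain stood in 1 reference transcript for 3 of 9 genes, CLK1, CLK3 and SRPK1, against 39.4% of matched genes and 30% of those with 12 to 18 introns, the range of the 9 genes. The other 6 chains joined exons that no single reference transcript combines. The longest run found in 1 transcript was 11 of 13 introns in CLK2, 13 of 18 in SRPK2, 9 of 15 in CLK4, 7 of 12 in DYRK1A, 8 of 12 in CCNL1 and 6 of 14 in CCNL2. The counts of the 9 genes lay near those of all genes here. No listed internal exon of the 9 genes equalled a run of reference exons with the introns between them (0 of 9 genes, against 10.2% of all genes).

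Listed exons that no protein-coding reference transcript holds made up 11 of the 114 internal exons (9.65%), against 9.67% of the internal exons of all matched genes. They fell in 5 of 9 genes, CLK2, CLK4, SRPK2, CCNL1 and CCNL2, against 51.4% of all genes and 59.8% of those with 12 to 18 introns. These shares were close to the background. Among them, 5 exons (4.39% of 114) occurred in a transcript annotated for nonsense-mediated decay, against 1.06% of all internal exons. These 5 lay in 3 of 9 genes, CLK4, CCNL1 and CCNL2, against 7.44% of all genes and 9.6% of those with 12 to 18 introns. No test of that difference was made, since the 9 genes were chosen with earlier results known.

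CLK4 held 3 of the 11 exons. Exon 3 (178049394 to 178049460, 67 bases) is an exon of CLK4-209, a decay transcript, and exon 4 (178046839 to 178046897, 59 bases) is one of CLK4-203 and CLK4-206, which keep introns. No reference transcript joined these exons, and the 2496-base intron listed between them is not in the reference. With both left out, the intron would be 4477 bases long, as in 7 reference transcripts. Exon 13 (178032826 to 178032866, 41 bases) is an exon of the decay transcript CLK4-210, which also lacks the regulated exon. Without exon 13 the intron would be 2993 bases, as in 4 transcripts. The 67-base exon 3 has the length of the 67-base exon after the regulated exon and is a different exon, 5′ of it.

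CCNL1 and CCNL2 each held a 14-base exon found in decay transcripts. It was exon 7 of CCNL1 (156869706 to 156869719), present in CCNL1-226, and exon 6 of CCNL2 (1328170 to 1328183), present in CCNL2-213 and CCNL2-216. In both genes it followed a 65-base exon. The exons are shown for their likeness, with capitals at the 10 of 14 bases that both genes have, from GENCODE v29 (GRCh38) at chr3:157151917-157151930 and chr1:1392790-1392803, both on the minus strand.
CCNL1 exon of 14 bases: GGTAGtCcaTGAtG
CCNL2 exon of 14 bases: GGTAGcCtcTGAgG
Without it the CCNL1 intron would be 1795 bases, as in 7 reference transcripts. In CCNL2 a 279-base exon of the non-coding transcript CCNL2-208 was listed right after it, and with both left out the intron would be 2530 bases, as in CCNL2-201.

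CCNL1 exon 4 (156874800 to 156874872) had 73 bases and occurs in the decay transcript CCNL1-216 and in CCNL1-217 and CCNL1-222, which keep introns. Its start is shown up to the annotated stop codon of CCNL1-216, in capitals, from GENCODE v29 (GRCh38) at chr3:157157053-157157083 on the minus strand.
CCNL1 exon 4, first 31 bases: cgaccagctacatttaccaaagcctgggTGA
Without this exon the intron would be 5709 bases, as in 5 reference transcripts. CCNL2 also held an 118-base exon 11 from non-coding transcripts (2164 bases without it, as in 6 transcripts). The 3 exons with no reference match (2.63% of 114, against 7.54% of all internal exons) were CLK2 exon 13 (136 bases), SRPK2 exon 3 (26 bases) and CCNL2 exon 14 (348 bases). CLK2 exon 13 lay between introns of 241 and 172 bases, and without it the last intron would be 549 bases, as in 5 reference transcripts. SRPK2 exon 3 lay in what 2 reference transcripts give as 1 intron of 119778 bases.

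Where the reference offers more than 1 splice site for a listed exon, the file gave 1 of them. DYRK1A exon 6 was listed with 93 bases, as in 8 reference transcripts, and not with the 120 bases of 10 others. CLK2 exon 4, the regulated exon, was listed with 88 bases, as in 2 transcripts, of which CLK2-203 is protein-coding. It was not listed with the 85 bases of 2 others, both protein-coding. DYRK1A exons 3 and 4, of 93 and 132 bases, stand only in protein-coding transcripts (DYRK1A-206, DYRK1A-208 and DYRK1A-213) in which they hold 0 coding bases.

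When the listed chains were read from the start codon of the protein-coding transcript that shared most introns, CLK1, CLK3 and SRPK1 gave the frame of the reference. CLK1 had 484 codons in the listed chain and 484 in CLK1-201. CLK3 had 638 codons in the listed chain and 638 in CLK3-202, and SRPK1 had 655 in the listed chain and 655 in SRPK1-204. The other 4 chains that could be read met an early stop, here one with fewer codons than the reference and more than 50 bases before the last junction. CLK4 had 53 codons in the listed chain, against 481 in CLK4-201, with a stop that spanned the junction of exons 2 and 3, 1310 bases before the last junction. CCNL1 had 172 codons in the listed chain, against 526 in CCNL1-202, with the stop in the 73-base exon 4, 800 bases before the last junction. CCNL2 had 236 codons in the listed chain, against 520 in CCNL2-201, with the stop in the 279-base exon 7, 1259 bases before the last junction. DYRK1A had 27 codons in the listed chain, against 754 in DYRK1A-222, with the stop in exon 3, 1660 bases before the last junction. The DYRK1A value changed with the start codon: read from that of DYRK1A-224, in exon 5, its listed chain met no stop in 477 codons up to exon 12, the last that could be read. For CLK4 and CCNL1, each other start codon that could be placed led to the same stop. For CCNL2 the start of CCNL2-202 did so too, while that of CCNL2-203, in exon 8 and past the first stop, gave 141 codons with a stop in exon 11. CCNL1-201, a protein-coding reference transcript, also has 172 codons.

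An early stop was met in 4 of 7 genes, against 13.4% of the genes that could be read and 18.3% of those with 12 to 18 introns. CLK2 and SRPK2 could not be read to a stop from the chosen start, because each holds an exon with no reference match. The CLK2 chain was open for 439 codons up to exon 12, before the unmatched exon, and the SRPK2 chain met no stop before its final exon 19 when read from the start codon of SRPK2-201, in exon 4. A chain with an unmatched exon entered these counts only if its stop came first, which raises the share with an early stop in the 9 genes and in all genes. The stops of CCNL1 and CCNL2 lay in exons that matched, at their full length, only non-coding or decay transcripts. That of CLK4 began at the end of exon 2, which protein-coding transcripts hold, and ended in exon 3, which only a decay transcript holds. For CCNL1 the frame is nevertheless as long as that of the protein-coding transcript CCNL1-201, which has 4 exons and 172 codons. All exons of a gene stand in 1 chain in this file, so an early stop describes the listed chain, and the rows do not say whether 1 RNA molecule held all of its exons.

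**Figure D3:**
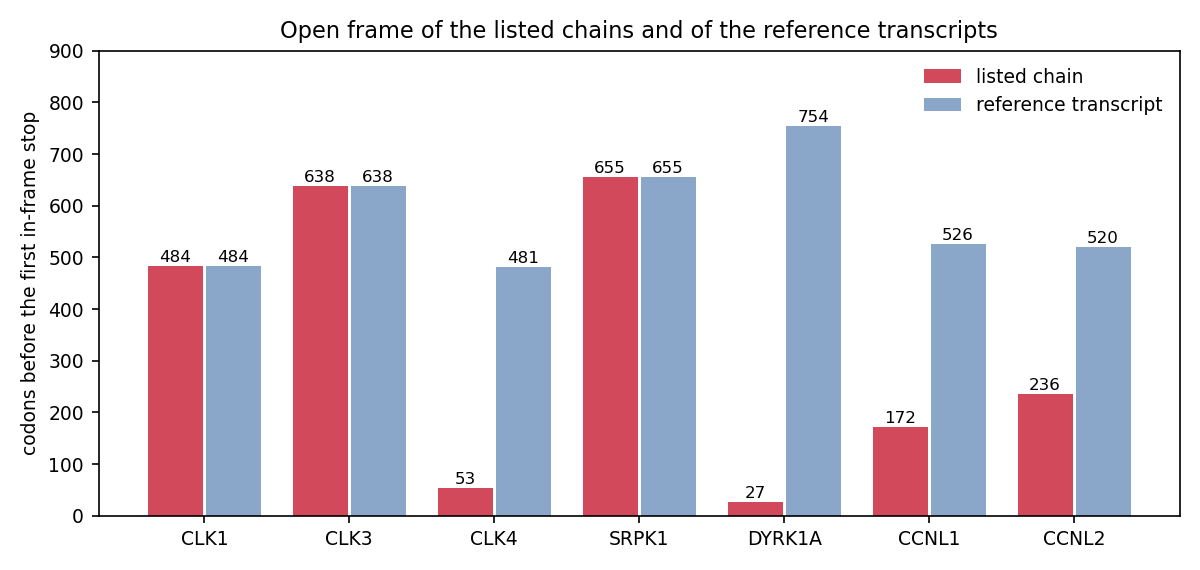
Codons before the first in-frame stop in the listed chain (left bar of each pair) and in the reference transcript (right bar) for the 7 genes that could be read. CLK1, CLK3 and SRPK1 have equal bars, and CLK4, DYRK1A, CCNL1 and CCNL2 have the listed chain below the reference.

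Early ends inside an intron were listed for 2 of 9 genes, CLK4 and CCNL2, against 14.1% of all genes with introns and 19.5% of those with 12 to 18 introns. The same 2 genes were those with 2 or more final exons, a final exon being told by its 5′ edge, against 22.5% of all genes and 29.5% of those with 12 to 18 introns. CLK4 alone had a spanned intron, one that is a gap in 1 isoform and lies inside an exon of another. That was 1 of 9 genes, against 4.18% of all genes and 5.68% of those with 12 to 18 introns. With counts of 1 and 2 genes, these were close to the shares of all genes.

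CLK4 had 2 early-ending isoforms that ended at the same base, 178048814, which lay 580 bases into the 2496-base intron 3. One had 2 exons and a final exon of 1604 bases (178048814 to 178050417), which began as the 161-base exon 2 and ran through the 796-base intron 2 and exon 3. The other had 3 exons and a final exon of 647 bases (178048814 to 178049460), which began as exon 3. The reference holds close forms, CLK4-208 with a final exon of 1605 bases and CLK4-213 with one of 651. Both ends lie before the regulated exon and before the exons shared with the other CLK genes. The file put these isoforms in groups of their own (ALE1 and ALE2), and the full chain in ALE3. The sources used here do not say what the group names mean.

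CCNL2 had 1 early-ending isoform of 6 exons. Its final exon had 515 bases (1327669 to 1328183), began as the 14-base exon and ran 501 bases into the 1214-base intron after it. CCNL2-202, a protein-coding reference transcript, ends in an exon of 516 bases after the same intron. In CLK4 and in CCNL2 alike, the early end followed an exon that no protein-coding transcript holds as an internal exon. In each of these 3 isoforms the last row extended the row before it, so the early ends vanish if the earlier row is kept in place of the later one.

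**Figure D4:**
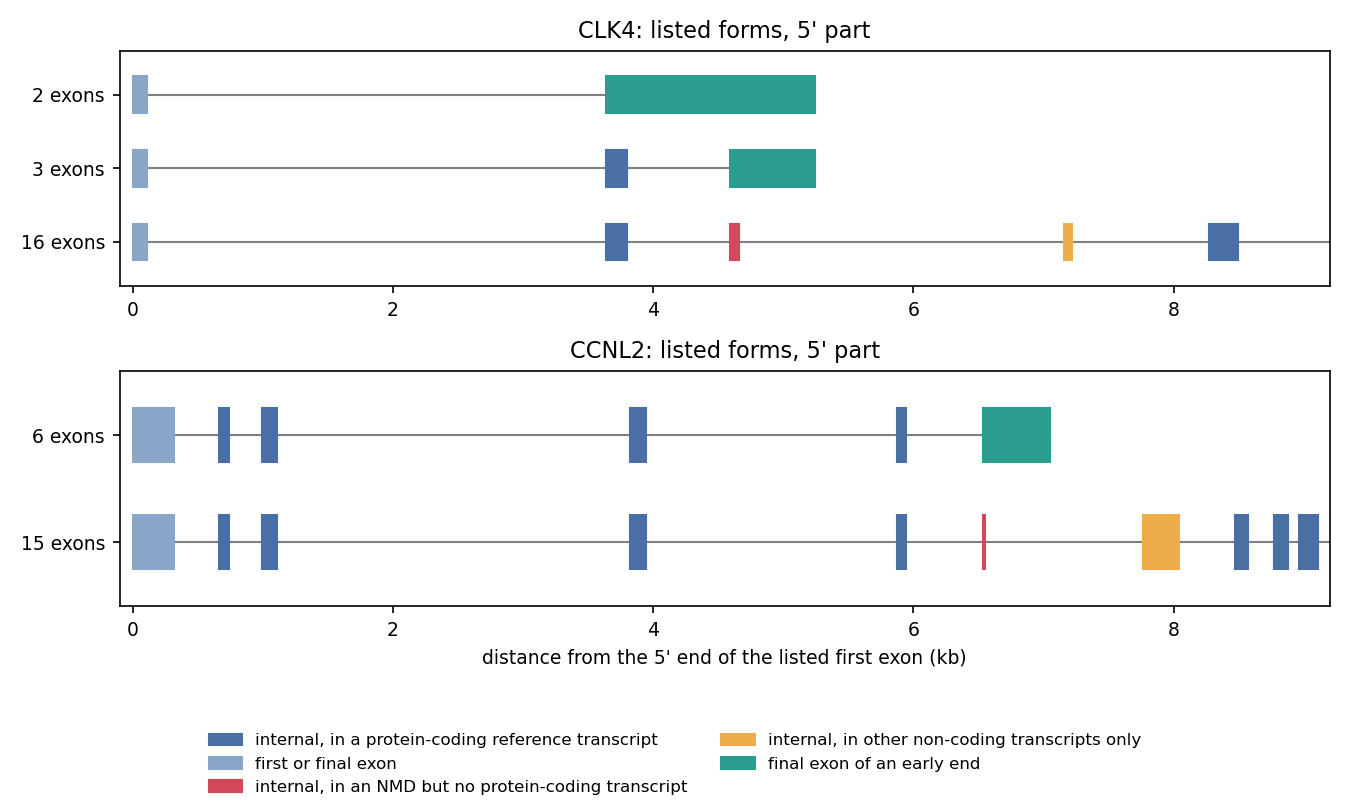
Listed forms of CLK4 (above) and CCNL2 (below), 5′ part only, to scale in kb from the 5′ end of the first exon. Green boxes are the final exons of the early ends, of 1604 and 647 bases in CLK4 and 515 bases in CCNL2, and the lowest row of each panel is the longest chain.

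Further ends within the last exon were also listed. Among the 9 genes, 6 had 2 or more listed ends, against 35.2% of all genes and 42.7% of those with 12 to 18 introns. These shares count the ends of all final exons, early ends included. No share over all genes was computed for ends within the last exon alone. CLK1 had final exons of 351, 368 and 373 bases, and the 351-base form was listed 2 times. CLK3 had 412, 490 and 495 bases, the 412-base form 2 times. The 412-base end, at 74922459, was the lower edge of EDC3, a gene on the opposite strand whose listed exons overlap CLK3 by 84 bases. EDC3 encodes an mRNA decapping enhancer and was the only listed gene that overlapped any of the 9. CLK4 had 487 and 1093 bases, and SRPK1 had 2454 and 2522. CCNL1 had 793 and 1036 bases, with the 793-base form in 2 groups. CLK2, SRPK2 and DYRK1A had 1 listed end each.

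CCNL2 was listed with a final exon of 1 base at 1321876 in 2 isoforms, the only 2 such isoforms of the file, and with one of 785 bases from the same 5′ edge. The 738-base intron before it is not in the reference. From the start of exon 14, the listed rows reached 1087 bases to the 1-base exon and 1871 bases to the furthest end, against reference final exons of 1088 bases in CCNL2-201 and 1872 bases in CCNL2-211 after the same intron. A difference of 1 base was usual on the minus strand. There the reference final exon was 1 base longer than the listed one in 51.2% of 4208 genes and equal in 9.48%, while on the plus strand it was equal in 63.9% of 3658 genes.

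DYRK1A and SRPK2 ended in exons that at least 1 reference transcript places inside the transcript. The 125-base final exon of DYRK1A equals an internal exon in 11 reference transcripts, and the 315-base one of SRPK2 equals an internal exon of SRPK2-205. For SRPK2, 2 reference transcripts also end after the same last intron. The closest is the protein-coding SRPK2-208, with a final exon of 443 bases. For DYRK1A, 0 reference transcripts end after its last listed intron. This held for 2 of 9 genes, against 18.6% of matched genes and 17.2% of those with 12 to 18 introns. A last row that repeats the row before it was present in 3 of 9 genes, DYRK1A, SRPK2 and CCNL1, against 25.4% of all genes.

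**Figure D5:**
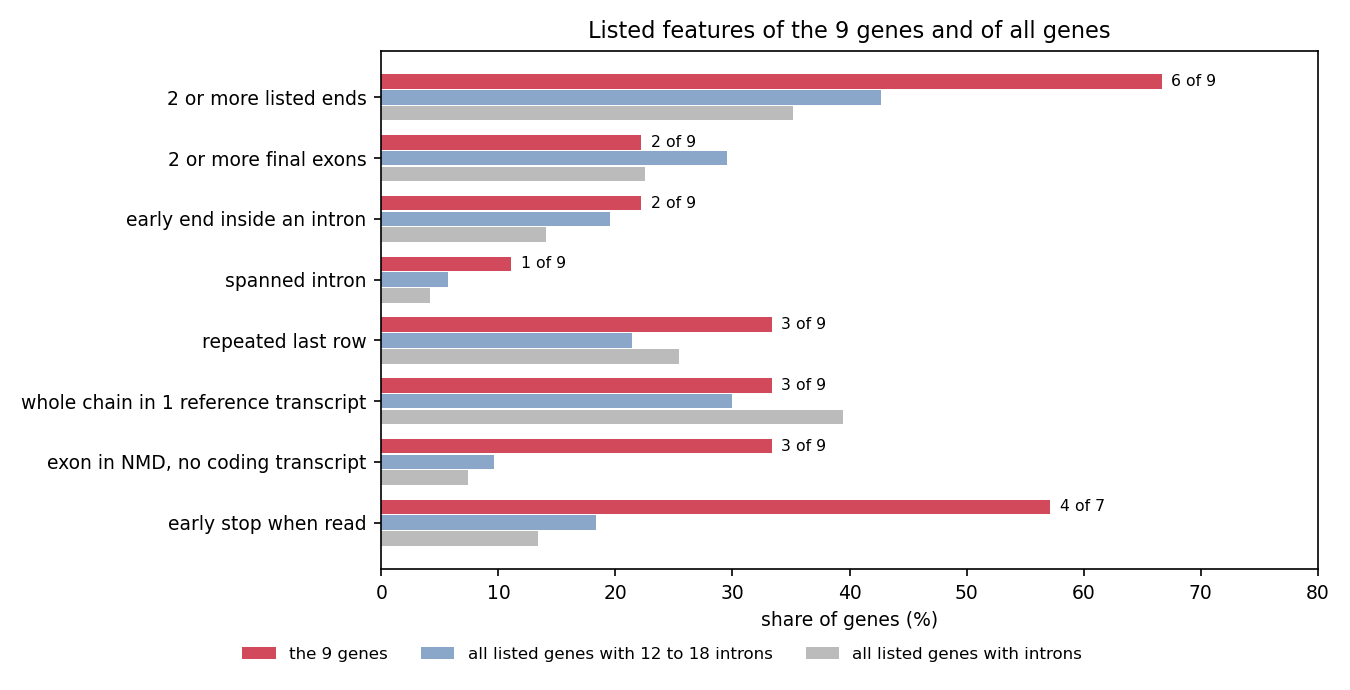
Share of genes with each listed feature, in percent, for the 9 genes (upper bar), all listed genes with 12 to 18 introns (middle bar) and all listed genes with introns (lower bar); labels give the count of the 9 genes, or of the 7 that could be read. Bars of the 9 genes stand on 1 to 6 genes, and 2 of 9 have 2 or more final exons, against 22.5% of all genes.

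Genes of the same pathway are given by whole lists. Of 13 SR protein genes, the substrates of these kinases, 12 were listed (SRSF12 was not), and 8 of the 12 had an internal exon found in a decay transcript and in no protein-coding one, among them SRSF1, SRSF10, SRSF11 and SRSF2. Early ends were listed for 1 of the 12, SRSF10, against 14.1% of all genes, and 5 had 2 or more final exons, against 22.5%. Of 10 other kinases of these families, 9 were listed (HIPK4 was not), and PRPF4B alone had such an exon. DYRK1B, HIPK1 and PRPF4B, 3 of these 9, had an early end, against the same 14.1%. Of 10 cyclin L partners and related transcription cyclins and kinases, 9 were listed (CDK11A was not), CCNT2 and CDK12 had such an exon, and CCNT2 alone, 1 of these 9, had an early end. CDK11A and CDK11B are near-identical copies, so the listing of this pair is uncertain. The lists are short, and 7.44% of all genes had such an exon.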

How the data were processed

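Per the labels, 6 libraries of poly(A)-selected RNA were sequenced. Tools given in the submitters' processing notes, with no roles, are RSEM, DESeq 1.10.1, STAR 2.4.1d, bedtools 2.20.1 and Bowtie 1.0.1; GRCh37 and hg19 are the builds. The deposited annotation holds exon start and end positions (382567 rows) that the authors made for both groups together, with no value per library, so depth is unknown and no level was tested.

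Rows were grouped by parent into 31659 isoforms, 26 of them of the 9 genes, and 76 rows whose end preceded their start were dropped. Where consecutive exons overlapped, the later was kept. The longest chain of a gene is its isoform with most introns. Gene names were matched to GENCODE v29 (GRCh38; 12493 names), and exons and introns were compared by length within a gene, never by position. An exon matched with equal length and at least 1 equal flanking intron.

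The 9 genes, the gene lists and the features were chosen with earlier results of these data known, and the comparisons with reference transcript classes, reading frames and listed ends were chosen after seeing the file. All members were named, with up to 4 genes of a list in alphabetical order and the 3 genes most like CLK1, SRPK1, DYRK1A and CCNL1. Python 3.11.15, numpy 2.4.6 and mafft 7.526 were used, and the structure rules were tested on simulated data.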

Additional observations from a re-analysis of the deposited data

How the results depend on the processing

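Of 35 alternatives to 18 results, 31 gave a count within 1.5 times of the one reported and 4 did not. Genes with 2 or more final exons numbered 2, against 6 with a final exon told by both edges and 0 where its 5′ edge had to be shared with no internal exon. Genes with a spanned intron numbered 1, and genes with an early end 2, and both counts became 0 where the earlier of 2 overlapping exons was kept. This follows from the construction, since each of these ends is a last row that extends the row before it. Counts of 0 for skipped exons and first exons cannot move, because isoforms of a gene differ only in their ends. For the same reason, paralog runs taken over any pair of listed isoforms could not change. These alternatives are among the 31 by construction and do not bear on how stable the results are. The alternatives for exons in no protein-coding transcript (4, 6 and 5 genes, against 5), for early stops (4 against 4) and for whole chains (3 against 3) were chosen after seeing the data. No paired analysis was possible because no column belongs to a single library. The planned test of EPZ015666 against DMSO and its replicate block were not run for the same reason. Matching by length can pair unlike exons of equal length, and the reference is of another build, so positions were not compared.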
